A study of Solanum lycopersicum x Solanum pennellii and Solanum lycopersicum and Solanum pennellii with 31 samples.

Results

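The regions described here were the small RNA (sRNA) loci on the unplaced sequence of the tomato genome, which build SL2.50 carries as chromosome 0. A locus is a cluster of mapped sRNA reads. A locus was taken when it lay on chromosome 0 and was over 40 and under 1000 bp long, which gave 3283 of the 219578 loci in the table, or 1.495%. Another 617 unplaced loci of 40 bp or less and 10 of 1000 bp or more fell outside the length limits. The comparison set was the 186605 loci of 41 to under 1000 bp on the 12 placed chromosomes. Counts came from the aerial part of 2-week-old seedlings in 5 libraries: 2 of Solanum lycopersicum cv. M82 and 1 for each of the introgression lines, named IL1-1, IL2-5, and IL8-3. All plants shared the M82 background. In each line a homozygous segment of Solanum pennellii LA0716 took the place of the M82 segment, on chromosome 1, 2 or 8 respectively. The paper took these libraries from an earlier study and corrected the labels of the lines. Each line was a single plant, so a property of the line cannot be told apart from a property of that seedling, and the loci had been defined on these same 5 libraries.

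Most plant sRNA loci produce small interfering RNAs. RNA polymerase IV transcribes the locus, an RNA-dependent RNA polymerase makes the transcript double-stranded, a Dicer-like enzyme cuts it, and the product guides DNA methylation back to matching sequence, often in transposons and other repeats. Unplaced sequence is made of assembled scaffolds that could not be anchored to a chromosome, commonly because they are rich in repeats, and it is strung together in an arbitrary order. A position on it therefore says nothing about where the DNA lies in the nucleus, and scaffolds that sit side by side in the file need not be neighbours in the plant. Reads that match several places are a particular concern for such sequence, since the mapper assigns them from the uniquely mapped reads around each candidate place.

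Library totals over all loci ran from 2843012 reads in M82 replicate 2 to 5688499 in IL8-3, so detection limits differed by library. Levels are given as CPM, counts scaled to 1000000 reads per library with a TMM factor for library composition. The table names no gene, so the labelled tissue could not be checked against marker genes. In bulk tissue, fewer cells of a type and less RNA per cell cannot be told apart. The introgressed intervals themselves were visible in the counts. Among loci averaging at least 10 counts, the median log2 ratio to M82 was -1.49 for IL1-1 on its chromosome 1 interval, -1.21 for IL2-5 on chromosome 2 and -1.15 for IL8-3 on chromosome 8.

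sRNA loci were sparser on the unplaced sequence than on any placed chromosome. The 3283 loci spanned 21.8 Mb from the start of the first to the end of the last, giving 150.8 loci per Mb with an exact 95% Poisson interval of 146 to 156 that covers counting error only. Chromosome 5, the lowest of the 12 placed chromosomes, had 204.7 loci per Mb, chromosome 6 had the most at 304.2, and the median was 229.8. The unplaced sequence was also lowest in bases covered by loci, with 25352 per Mb against 34693 to 55428 on the placed chromosomes. With loci of every length the density was 179.5 per Mb against 240.1 to 344.3, and with loci of at least 10 mean counts it was 30.0 against 50.1 to 92.6. There is 1 value per sequence and no replicate of it, so these are descriptions. The length of unknown bases within the span was not used here.

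**Figure D1:**
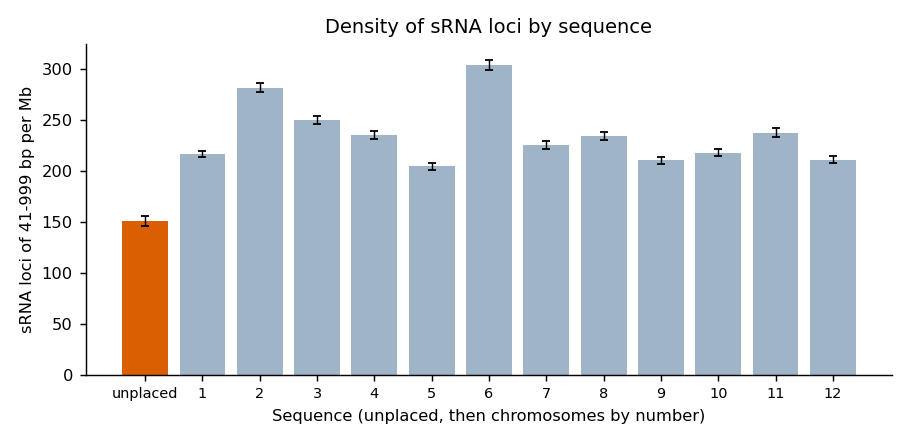
Loci of 41 to under 1000 bp per Mb (vertical axis) on the unplaced sequence and on chromosomes 1 to 12 (horizontal axis); bars are counts over the span from the first to the last locus and whiskers are exact 95% Poisson intervals. The unplaced bar, at 150.8, stands below the lowest placed chromosome, at 204.7.

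The unplaced loci were also a little shorter and stood farther apart. Their median length was 134 bp (quartiles 89 and 208) against 142 bp (92 and 223) for placed loci, and chromosome medians ran from 138 to 147 bp. The median gap to the next locus was 1339 bp, beyond the placed range of 739 to 882 bp. Gaps under 1 kb made up 44.3% of the unplaced gaps and 53.4 to 59.0% of those on the placed chromosomes. The members just inside the upper length limit were Cluster_484 (926 bp), Cluster_1068 (916 bp) and Cluster_1202 (899 bp), all weakly covered. Cluster_484 (6578696 to 6579621) had 34 and 10 reads in the M82 plants, 25 for IL1-1, 17 for IL2-5 and 24 for IL8-3. Cluster_3292, just above the limit at 1056 bp, had 168 and 179 reads in the M82 plants and 215, 135 and 265 across the lines. At the lower limit, Cluster_3706 (41 bp, 20812952 to 20812992) had 16 and 50 reads in the M82 plants and 69, 61 and 74 across the lines, and Cluster_919 (40 bp), just outside, had 15 and 48 against 20, 61 and 27. These loci were taken for their coverage, and other 41-bp loci were at 0 in some libraries, such as Cluster_266 with 5 and 0 reads in the M82 plants and 0, 1 and 3 across the lines. Cluster_1365 (41 bp), another of the shortest, had 25 and 20 reads in the M82 plants and 29, 23 and 36 across the lines.

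Along the unplaced sequence the loci were far from evenly spread. In consecutive 1-Mb steps the number of loci ranged from 39 to 280 over whole steps. Of the first 12 steps, 11 held fewer loci than any of steps 13 to 21, and steps 1 to 6 held 343 loci together. Steps 13 to 21 held 2113 loci, with 199 to 280 in each, where placed chromosomes averaged 204.7 to 304.2 per Mb. Reads did not follow the number of loci. Steps 9 and 10 contained 5.85% of the loci and, as a mean over libraries, 25.5% of the reads on them. Step 8 lay at the other end, with 39 loci and 137 and 53 reads in the M82 plants, 128 for IL1-1, 93 for IL2-5 and 120 for IL8-3.

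**Figure D2:**
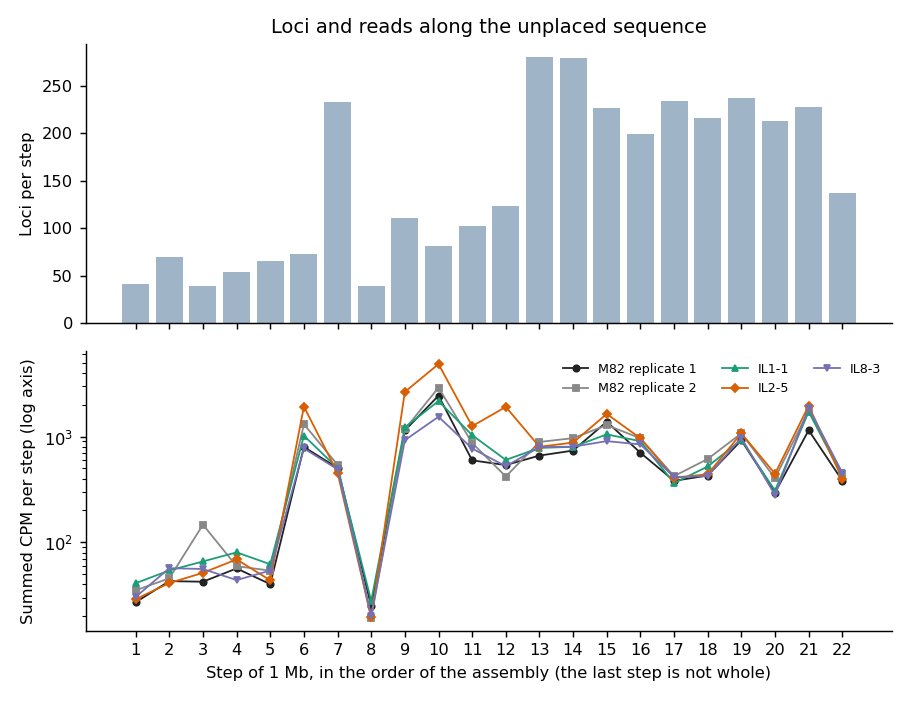
Loci per 1-Mb step (upper panel) and summed CPM of those loci (lower panel, log axis) along the unplaced sequence, with 1 line per library; step order is that of the assembly and the last step is not whole. Locus numbers are highest in steps 13 and 14, at 280 and 279, whereas read levels peak in step 10 in every library except IL8-3, which peaks in step 21.

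Most unplaced loci were weakly covered, and a few were very strongly covered. Of the 3283, 2630 had a mean of 1 to 10 counts over the libraries, 565 had 10 to 100, 75 had 100 to 1000 and 13 had at least 1000. The top class made up 0.396% of unplaced loci and 0.146% of placed loci, whereas loci with at least 10 mean counts made up 19.9% of unplaced loci and 24.5 to 30.4% of those on each placed chromosome. The median of the mean counts was 2.8, below the placed range of 3.4 to 4.2, but their average was 22.4, above 9 of the 12 placed chromosomes. Summed read level per Mb, at 732 CPM, was below the lowest placed value of 757.

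Unplaced and placed loci were also compared inside each library, in comparisons chosen after the values had been seen. Loci with at least 10 reads in a library made up 20.9% ± 3.5 (SD, n = 5) of unplaced loci and 26.9% ± 5.3 (SD, n = 5) of placed loci, lower among unplaced loci in 5 of 5 libraries (difference -6.04 percentage points, exact sign-flip test, two-sided, p = 0.0625, Benjamini-Hochberg adjusted over 4 measures 0.125). Mean reads per locus, 22.4 against 21.4, did not separate them, with a log2 difference of 0.05 ± 0.25 (SD, n = 5; exact p = 0.875). The share of loci with any read was 86.4% against 87.9% (exact p = 0.125, adjusted 0.167). The remaining measure left the 10 most read loci out of the unplaced side alone, which lowers that side by construction, and nothing is read from it. With 5 libraries no p below 0.0625 could be reached, and none of these comparisons passed the correction. The libraries are repeat readings of the same loci, which were defined on them together. Agreement between them is therefore not replication of unplaced against placed sequence.

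The unplaced loci took up between 1.53% and 2.39% of all reads on loci of 41 to under 1000 bp. The share was 1.70% in M82 replicate 1, 1.79% in M82 replicate 2, 1.64% for IL1-1, 2.39% for IL2-5 and 1.53% for IL8-3. IL2-5 was the highest, and IL1-1 and IL8-3 lay below both M82 libraries, so the groups overlapped. The counting intervals were narrow, for example 2.37 to 2.40% in IL2-5 (95% binomial), but PCR copies are not independent molecules. The mean over the lines was 1.85% ± 0.46 (SD, n = 3) and that over M82 was 1.74% ± 0.06 (SD, n = 2), a difference of 0.11 percentage points (exact permutation test, two-sided, p = 1, smallest possible 0.1). Without IL2-5 the difference was -0.16 percentage points. IL2-5 also had the lowest TMM factor, 0.897 against 0.970 to 1.13 in the others, and neither the part of library composition nor that of reads matching several places was tested.

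Most of the IL2-5 excess lay in the 10 most read unplaced loci. These were ranked by mean CPM over all libraries, IL2-5 included, so part of that result was built into the ranking. They held 27.9% and 31.6% of the unplaced reads in the M82 plants, 28.5% in IL1-1 and 25.4% in IL8-3, but 43.3% in IL2-5. With them left out the share was 1.23% in both M82 libraries, 1.18% for IL1-1, 1.37% for IL2-5 and 1.15% for IL8-3. IL2-5 was still the highest library, and the difference between the group means was 0.00083 percentage points. Among the 50 most read unplaced loci IL2-5 was the highest library at 31, M82 replicate 2 at 9, M82 replicate 1 at 4, and IL1-1 and IL8-3 at 3 each. Among all 653 unplaced loci averaging at least 10 counts, IL2-5 was highest at only 20.2%. For placed loci outside the introgressed intervals it was highest at 19.1%, and at 15.4% of an equally ranked set of the most read ones.

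**Figure D3:**
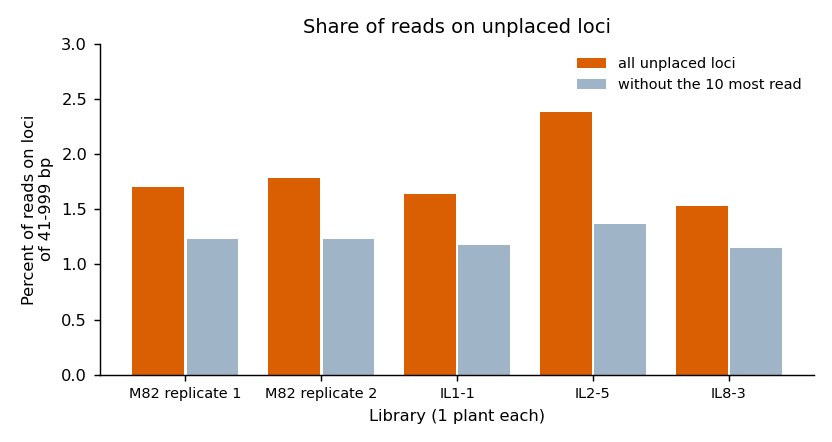
Percent of reads on loci of 41 to under 1000 bp that fell on unplaced loci (vertical axis) in each of the 5 libraries, for all 3283 loci and without the 10 most read. IL2-5 stands at 2.39% with them and at 1.37% without them, and the other libraries at 1.15 to 1.23% without them.

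Detection was lowest in the shallowest library. At least 1 read was found at 87.8% of the unplaced loci in M82 replicate 1, 78.2% in M82 replicate 2, 88.6% for IL1-1, 85.7% for IL2-5 and 91.5% for IL8-3. The loci at 0 numbered 402, 715, 375, 470 and 279 in that order. The lines averaged 88.6% ± 2.9 (SD, n = 3) and M82 83.0% ± 6.7 (SD, n = 2; exact permutation p = 0.3, smallest possible 0.1). With every library thinned to 2843012 reads the shares were 77.2% and 78.2% in the M82 plants, 78.9% for IL1-1, 72.7% for IL2-5 and 78.7% for IL8-3, and the difference was -0.93 percentage points (exact permutation p = 1). Thinned placed loci were detected at 82.1% and 79.0% in M82 and at 79.2%, 78.7% and 81.0% in the lines. IL2-5 was the lowest library in both sets after thinning. A count of 0 allows up to 3 reads at these depths, so a locus at 0 was not detectable and is not shown to be silent.

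The most read loci ranged over mean levels of 317 to 968 CPM. The largest was Cluster_398, 872 bp long (5655581 to 5656452). It had 636 and 1102 CPM in the M82 plants, 829 for IL1-1, 1669 for IL2-5 and 605 for IL8-3. IL2-5 was highest and IL8-3 lowest, with both M82 libraries between them.

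Cluster_923 (455 bp, 9359523 to 9359977) and Cluster_798 (791 bp, 8352358 to 8353148) shared a pattern in which IL2-5 alone stood far above the rest. Cluster_923 had 352 and 425 CPM in the M82 plants, 594 for IL1-1, 1693 for IL2-5 and 362 for IL8-3. Cluster_798 had 383 and 349 in the M82 plants and 524, 1612 and 332 across the lines. In both, IL8-3 lay within or below the M82 values, so the groups overlapped. Their fitted log2 fold changes were 1.17 (SE 0.67) and 1.16 (SE 0.68), with edgeR quasi-likelihood adjusted p of 0.577 and 0.588.

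Cluster_1226 (316 bp, 11968608 to 11968923) had the largest ratio of its highest to its lowest library among the 10 most read loci. It had 157 and 92.8 CPM in the M82 plants, 218 for IL1-1, 1355 for IL2-5 and 265 for IL8-3. All 3 lines were above both M82 libraries, and IL2-5 stood far above the rest. The log2 fold change was 2.28 (SE 0.86), which did not pass the test (edgeR quasi-likelihood adjusted p = 0.444), and it was 0.95 without IL2-5.

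Cluster_910 (435 bp, 9327884 to 9328318) was the exception among the strong loci, with less sRNA in every line. It had 3525 and 2739 reads in the M82 plants, 540 for IL1-1, 1096 for IL2-5 and 559 for IL8-3. On the scaled level that was 817 ± 249 CPM in M82 (SD, n = 2), while the lines averaged 148 ± 73 (SD, n = 3). All lines lay below both M82 libraries. The log2 fold change of -2.48 (SE 0.49) had an unadjusted p of 0.000987 in the edgeR quasi-likelihood test across all loci but an adjusted p of 0.424. It was called by the edgeR likelihood ratio test (adjusted p = 0.0051) and by DESeq2 (adjusted p = 0.00053). Leaving out each library in turn kept it between -2.94 and -2.10, with edgeR quasi-likelihood adjusted p of 0.27 to 0.77.

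Of the other strong loci, Cluster_3651 (793 bp) also had every line above both M82 libraries, at 431, 539 and 457 CPM against 294 and 388. Its log2 fold change was 0.47 (SE 0.37, edgeR quasi-likelihood adjusted p = 0.701). In Cluster_3603 (466 bp) the highest library was IL8-3 at 671 CPM, with 252 and 496 in M82. Cluster_2018 (842 bp), Cluster_793 (803 bp) and Cluster_976 (598 bp) were each highest in IL2-5, at 846, 614 and 655 CPM, and lowest in IL8-3, at 213, 177 and 134. Both M82 libraries of Cluster_2018, at 490 and 576, fell inside the range of the lines. IL2-5 was thus the highest library at 8 of the 10 most read loci. Ranking by the mean over all libraries favours loci that are high in a single library. Of the 10, 2 had every line above both M82 libraries and 1 had every line below them.

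**Figure D4:**
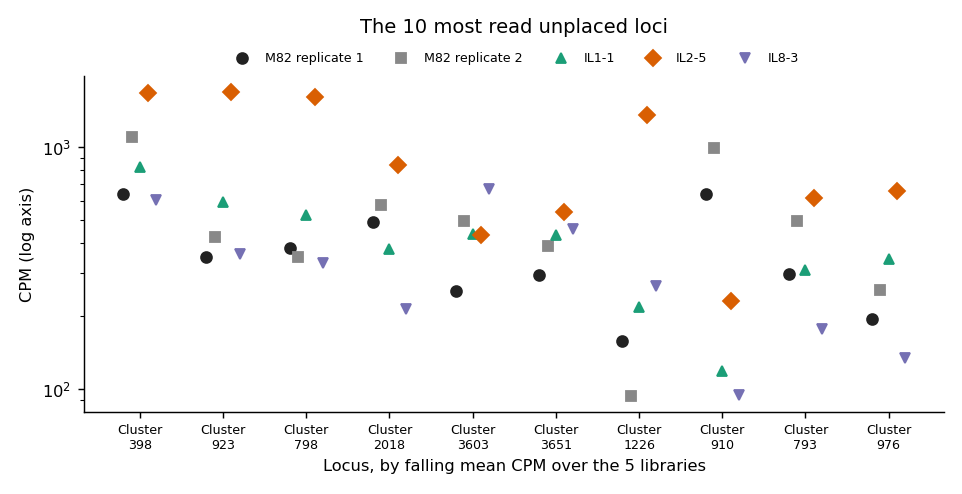
CPM (log axis) of the 10 most read unplaced loci, with 1 point per library, ordered by falling mean. IL2-5 is highest at 8 of 10 loci, and at Cluster_910 all 3 lines lie below both M82 libraries.

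Only 820 unplaced loci, or 24.98%, passed the filter on low counts, compared with 31.7% of placed loci, and the test of lines against M82 ran over 62065 loci of every length and sequence. No unplaced locus passed an adjusted p of 0.05 in the edgeR quasi-likelihood test, either higher or lower, and the smallest adjusted p was 0.366. Over all loci tested, 0.00322% were called higher and 0.00322% lower, so 0 of 820 is near that background. At an unadjusted p under 0.05, 39 unplaced loci (4.76%) were higher in the lines and 37 (4.51%) lower, against 4.88% and 5.48% of all loci tested. Every line lay above both M82 libraries at 118 (14.4%) and below both at 105 (12.8%), against 14.7% and 15.2%. The median fitted log2 fold change was -0.0002 with quartiles of -0.45 and 0.49, and that of all loci tested was -0.02 with quartiles of -0.46 and 0.43. By these counts the unplaced loci were near the background in both directions.

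The other tests made few calls. The edgeR likelihood ratio test called 4 unplaced loci higher and 4 lower, where 0.469% and 0.508% of all loci tested were called. DESeq2 called 3 higher and 2 lower out of the 365 unplaced loci to which it gave an adjusted p, where 0.561% and 0.254% of loci were called. Both tests called 4 of these, Cluster_910, Cluster_1439, Cluster_3002 and Cluster_3835, which is 4 of the 8 and 4 of the 5. With no filter beyond 1 count, edgeR's quasi-likelihood test called 0.0191% of all loci higher and 0.0146% lower, and among unplaced loci only Cluster_1265, lower.

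The loci with the largest differences were mostly weakly covered, and none passed the quasi-likelihood test. Cluster_1439 (159 bp, 12606977 to 12607135) was the most even of those higher in the lines. It had 7 and 3 reads in the M82 plants, 45 for IL1-1, 32 for IL2-5 and 44 for IL8-3, or 1.18 ± 0.13 (SD, n = 2) against 8.00 ± 1.63 CPM (SD, n = 3). All lines were above both M82 libraries, which the rule that named this locus required. Its log2 fold change was 2.70 (SE 0.45, edgeR quasi-likelihood adjusted p = 0.366), between 2.55 and 2.88 when each library was left out, and the likelihood ratio test and DESeq2 gave adjusted p of 0.0015 and 0.032. Cluster_1439 passed the filter on low counts through the lines alone and was picked for a large fold change. These values are therefore no independent test of a difference.

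The largest fitted value belonged to Cluster_249 (92 bp, 3671295 to 3671386), with 1 and 0 reads in the M82 plants, 52 for IL1-1, 96 for IL2-5 and 2 for IL8-3. IL8-3 was hardly above M82, so this was a difference of IL1-1 and IL2-5. The pooled ratio of lines to M82 rested on 1 M82 read and was 81.2, with an exact 95% interval of 14.4 to 3227. Cluster_3017 (70 bp) had 1 and 1 reads in the M82 plants against 14, 9 and 17, a pooled ratio of 10.8 (2.81 to 92.4). Cluster_3718 (61 bp) had 1 and 2 against 11, 14 and 9, a ratio of 6.13 (1.93 to 31.2), and Cluster_3536 (328 bp) 4 and 0 against 29, 5 and 14. These intervals pool reads over plants and cover counting error only. The loci passed the filter on low counts through the lines alone and were picked for a large fold change. The intervals are therefore no test of a difference. The groups did not overlap at any of these 4 loci on the scaled level, which the rule that named them required.

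Among loci lower in all 3 lines than in both M82 plants, at an unadjusted p under 0.05, Cluster_910 had the largest difference and Cluster_3835 (225 bp, 21497085 to 21497309) the next best covered. Cluster_3835 had 122 and 109 reads in the M82 plants, 42 for IL1-1, 24 for IL2-5 and 59 for IL8-3, or 30.9 ± 12.2 (SD, n = 2) against 8.07 ± 2.64 CPM (SD, n = 3). Its log2 fold change was -1.92 (SE 0.43, edgeR quasi-likelihood adjusted p = 0.424). Cluster_575 (75 bp) had 56 and 21 reads in the M82 plants against 7, 11 and 20, Cluster_3360 (118 bp) 11 and 17 against 7, 1 and 7, and Cluster_3028 (282 bp) 17 and 23 against 7, 6 and 11. Their log2 fold changes were -1.88, -1.95 and -1.80, with edgeR quasi-likelihood adjusted p of 0.424, 0.456 and 0.424. Without M82 replicate 2 the log2 fold change of Cluster_3360 was -1.0 and that of Cluster_3028 was -0.96. With each library left out in turn they ranged from -2.59 to -1.0 and from -2.36 to -0.96.

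Line by line, the unplaced loci as a set lay close to M82, unlike the introgressed intervals. Over the 653 that averaged at least 10 counts, the median log2 ratio to the M82 mean, with 0.5 CPM added, was -0.05 for IL1-1, -0.00083 for IL2-5 and -0.09 for IL8-3. The placed loci outside the introgressed intervals had medians of 0.0020, 0.01 and -0.01. The ratio between the M82 plants themselves, replicate 2 over replicate 1, had a median of 0.16 over unplaced loci and -0.0059 over those placed loci. Over unplaced loci, each line's median lay closer to 0 than that between the M82 plants. Over loci averaging at least 50 counts the IL2-5 median was 0.28, and with library totals alone it was -0.22. Against M82 replicate 1 alone all 3 line medians were above 0, at 0.06, 0.08 and 0.04. The 3 comparisons share their M82 libraries.

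The tails differed from the centre. More than 4-fold below M82 were 18 unplaced loci in IL1-1 (2.76%), 10 in IL2-5 (1.53%) and 11 in IL8-3 (1.68%), where 0.912%, 1.01% and 0.986% of all loci outside the introgressed intervals lay that low. In M82 replicate 2 against replicate 1 the count was 9 (1.38%), under the 2.33% of all such loci. More than 4-fold above M82 were 7 unplaced loci in IL1-1 (1.07%), 7 in IL2-5 (1.07%) and 3 in IL8-3 (0.459%), against 0.944%, 0.953% and 0.809% of all loci outside the intervals. In M82 replicate 2 against replicate 1, 27 (4.14%) lay that far above, against 1.52%. Among the loci 4-fold below M82 in some line, 25 were so in 1 line, 4 in a pair of lines and 2 in all 3. The 2 in all lines were Cluster_161 and Cluster_1265, named after their values were seen, and both were high in M82 replicate 2 alone. Cluster_161 (2408366 to 2408607) had 17 and 232 reads in the M82 plants and 29, 12 and 20 across the lines, and Cluster_1265 (12098664 to 12098819) had 197 in M82 replicate 2 and 0 in each other library.

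**Figure D5:**
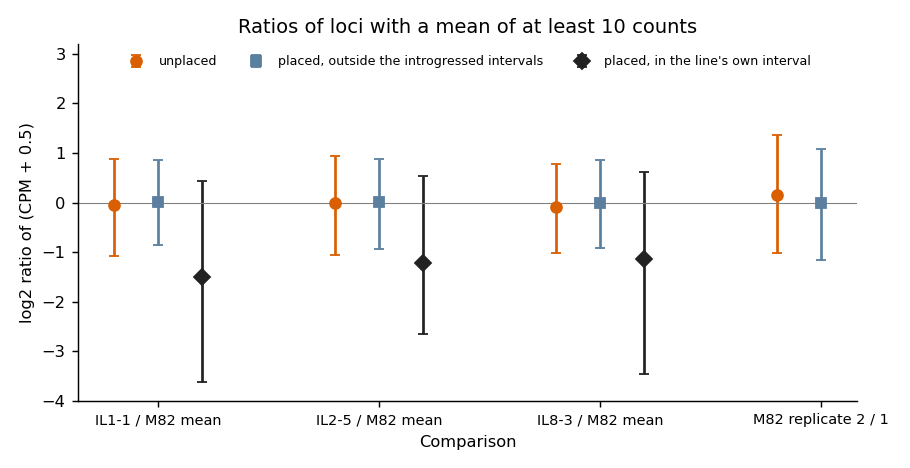
Median log2 ratio of CPM plus 0.5 (points) with the 10th and 90th percentiles over loci (whiskers), for each line against the M82 mean and for the M82 plants against each other. Unplaced loci centre near 0 in every line as placed loci outside the intervals do, while each line's own interval centres between -1.49 and -1.15.

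Some loci had no read in 1 line although all other libraries had reads. A locus counted as missing when it had 0 reads in that line and at least 5 in each other library. In IL1-1, 8 of 675 eligible unplaced loci were missing (1.19%), against 0.195% of the placed loci outside the introgressed intervals and 1.26% of all placed loci, the chromosome 1 interval included. In IL2-5 1 of 670 was missing (0.149%, against 0.107% outside the intervals), and in IL8-3 2 of 650 (0.308%, against 0.0622%). These are counts in single plants and were not tested.

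Cluster_2151 (321 bp, 14946781 to 14947101) was the best covered of the loci missing from IL1-1. It had 36 and 32 reads in the M82 plants, 27 in IL2-5, 58 in IL8-3 and 0 in IL1-1. Against a floor of 3 reads in the IL1-1 library, its level was at least 13.9-fold lower there than the M82 mean. Here and below the M82 mean is taken as it stands, so its own spread and counting error are not in such figures. They would be lower limits only for a locus fixed in advance. These loci were picked for their 0 reads, which the floor of 3 does not allow for. Cluster_2150, the locus before Cluster_2151, had 12 and 3 reads in the M82 plants and 14 in IL1-1, so the absence did not extend to this neighbour. Cluster_2768 (295 bp, 17315530 to 17315824) had 26 and 19 reads in the M82 plants, 14 in IL2-5, 23 in IL8-3 and 0 in IL1-1, at least 8.87-fold lower. Its following neighbour, Cluster_2769, had 40 reads in IL1-1 against 25 and 17 in M82.

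Some of the loci missing from IL1-1 lay close together. Cluster_1274 (123 bp, 12108924 to 12109046) had 22 and 16 reads in the M82 plants, 26 in IL2-5, 35 in IL8-3 and 0 in IL1-1, at least 7.48-fold lower. It lay in a stretch of 2890 bp (12107015 to 12109904) with 6 loci, 5 of them within the length limits. The stretch as a whole had 61 and 31 reads in the M82 plants, 66 in IL2-5 and 62 in IL8-3, and none of its 6 loci had a read in IL1-1. Its ends were set by that run of loci at 0. The wider stretch from 12105544 to 12109904, with 8 loci, had 1 read in IL1-1. The stretch of 2890 bp included Cluster_1271 and Cluster_1275, also among the 8 missing from IL1-1. Cluster_3395 lay in another stretch of 2207 bp (19603245 to 19605451), in which 2 of 6 loci were at 0 in IL1-1. Its reads numbered 890 and 574 in M82, 1315 in IL2-5 and 1748 in IL8-3 but 25 in IL1-1. Nearly all reads of the other libraries came from Cluster_3394, a 38-bp locus outside the length limits, with 836 and 545 reads in the M82 plants and 7 in IL1-1. The stretches were chosen after their values had been seen. The remaining loci missing from IL1-1 were Cluster_2223 and Cluster_2809, with 10 and 9 and with 12 and 7 reads in the M82 plants.

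Absences in the other lines were fewer and less clear. Cluster_2068 (110 bp, 14607842 to 14607951), missing from IL2-5, had 27 and 5 reads in the M82 plants, 10 in IL1-1 and 12 in IL8-3. Against the floor of 3 reads, its level in IL2-5 was at least 5.33-fold below the M82 mean. The M82 plants themselves had 4.9 and 1.8 CPM. Cluster_3267 (41 bp, 19084601 to 19084641), missing from IL8-3, had 49 and 11 reads in the M82 plants, 33 in IL1-1 and 6 in IL2-5. Its level in IL8-3 was at least 12.7-fold below the M82 mean, with 8.9 and 4.0 CPM in the M82 plants. Cluster_3266 beside it had 23 and 7 reads in the M82 plants, 18 and 3 in IL1-1 and IL2-5, and 0 in IL8-3.

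Cluster_1619 (367 bp, 13286163 to 13286529), the other locus missing from IL8-3, opened a stretch of 4812 bp in which IL2-5 and IL8-3 were both low. It had 22 and 11 reads in the M82 plants, 20 for IL1-1, 5 for IL2-5 and 0 for IL8-3. The 10 loci of the stretch together had 219 and 214 reads in the M82 plants, 281 for IL1-1, 70 for IL2-5 and 42 for IL8-3. Cluster_1624 (13289586 to 13289859) within it had 31 and 50 reads in the M82 plants and 51 in IL1-1 but 0 in both IL2-5 and IL8-3. That was at least 18.8-fold and 23.4-fold below the M82 mean, with 5.6 and 18.1 CPM in the M82 plants. IL1-1 lay near M82 here, whereas it had no read in the stretch around Cluster_1274.

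Reads were also summed in windows of 100 kb. Over the 127 windows with at least 100 M82 reads, the median ratio to M82 was 0.97 for IL1-1, 1.00 for IL2-5 and 0.93 for IL8-3, and 1.22 in M82 replicate 2 over replicate 1. Under 0.5 lay 1, 3 and 6 windows in the lines and 1 in the M82 comparison, and over 2 lay 2, 11, 0 and 13. The lowest window of IL8-3, from 13200001 to 13300000, contains the stretch of Cluster_1619, with ratios of 0.25 in IL8-3, 0.34 in IL2-5 and 0.99 in IL1-1. The window from 2400001 to 2500000 was among the 3 lowest in every line, at 0.43, 0.37 and 0.38. There M82 replicate 2 was 7.03 times replicate 1, and Cluster_161 held most of the reads of replicate 2.

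The remaining low windows were spread over the sequence. In IL1-1 they were 14900001 to 15000000, which holds Cluster_2151, at 0.56, and 6000001 to 6100000, with a single locus, also at 0.56. In IL2-5 the lowest window, 17900001 to 18000000, had a ratio of 0.34, with 310 and 244 reads in the M82 plants and 116 in IL2-5. In IL8-3 it was followed by 19800001 to 19900000 at 0.37, with 53 and 61 reads in the M82 plants and 35 in IL8-3. The window at 10600001 to 10700000 reached 6.44 in IL1-1, where Cluster_1072, named after its values were seen, had 973 reads against 36 and 40 in M82 and 46 in each of IL2-5 and IL8-3. The window at 11900001 to 12000000 reached 8.76 in IL2-5 and contains Cluster_1226. In IL8-3 no window exceeded 1.87.

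Loci with reads in a single library were rare. With at least 20 reads in 1 library and 0 in the others there were 2 unplaced loci, Cluster_1265 in M82 replicate 2 and Cluster_3720 (120 bp, 20865431 to 20865550) in IL2-5, with 50 reads. That is 0.030% of unplaced loci for each of these libraries. Placed loci of this kind made up 0% in M82 replicate 2 and 0.0075% in IL2-5. For IL1-1 and IL8-3 there were 26 and 4 placed loci (0.014% and 0.0021%) and no unplaced locus. Outside the introgressed intervals the placed loci were 15 and 1 (0.0092% and 0.00061%). At such shares few or no unplaced loci of this kind would be looked for.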

How the data were processed

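Per the labels, RNA came from the aerial part of seedlings and libraries were made by TruSeq adapter ligation. Trim Galore, Bowtie 1.1.1 and DESeq2 1.8.1 appear in the submitters' processing notes. The authors mapped and clustered the 5 libraries together on build SL2.50 with ShortStack, and deposited raw read counts per locus, without normalization. Files of reads at the H06 locus were not used here.

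From these counts, edgeR 4.0.16 (filterByExpr, TMM, quasi-likelihood test, R 4.3.3) was fitted across all 219578 loci, of which 62065 passed the filter, with Benjamini-Hochberg adjustment over all tested. The common dispersion was 0.148. The edgeR likelihood ratio test and DESeq2 1.42.0 were alternatives. The script was tested on simulated data. Shares per library were compared by exact permutation of libraries. Each library was 1 plant, and the 3 lines, each of a different genotype, were taken as 1 group. The p-values of lines against M82 therefore rest on a spread that mixes differences between lines with those between plants. A change in 1 line alone widens that spread. In the quasi-likelihood test the dispersion also draws on all loci tested. Intervals cover counting error only, and floors of 3 reads cover it in the line but not in the M82 mean. The floors also do not allow for the picking of loci by their lack of reads. Introgressed intervals were taken as chromosome 1 up to 86 Mb, chromosome 2 from 44 to 54 Mb and chromosome 8 from 61 Mb.

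Loci named were the 10 most read, the 3 longest and 3 shortest with at least 10 mean counts, those at the length limits, any with an adjusted p under 0.05, up to 5 per direction with the largest fold change (unadjusted p under 0.05, no overlap of groups), up to 3 per line missing from it, and the 3 lowest windows per line. Members, lists and rules were chosen with earlier results of these data known. Adjusted p that DESeq2 did not give were left out.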

Additional observations from a re-analysis of the deposited data

How the results depend on the processing

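The test of lines against M82 called 0 unplaced loci higher and 0 lower under the edgeR quasi-likelihood test, and also with RLE size factors, with library totals alone, with at least 10 counts in 2 libraries, without the introgressed intervals, with unplaced loci alone, at an adjusted p of 0.1, and with each library left out (0 to 0). The likelihood ratio test called 4 and 4, DESeq2 3 and 2, and the fit with no filter 0 and 1. Leaving out the introgressed intervals did move the edgeR quasi-likelihood test. The smallest adjusted p among unplaced loci was then 0.131, against 0.366 in the main fit. Over all loci tested it called 15 higher and 10 lower, against 2 and 2 in the main fit. The share of reads differed by 0.11 percentage points, by -0.16 to 0.27 with each library left out, and by -0.16 without IL2-5. The share of loci detected differed by 5.60 points (0.83 to 10.4 with each library left out) and by -0.93 after thinning, an alternative that equalises depth. Median log2 ratios were 0.28 in IL2-5 with at least 50 mean counts and -0.22 with library totals alone. With each M82 library alone they were -0.03 to 0.06 in IL1-1, -0.04 to 0.08 in IL2-5 and -0.079 to 0.039 in IL8-3. The causes were not tested. Density was 150.8 loci per Mb, 179.5 with every length, 30.0 with at least 10 mean counts and 25350 covered bases per Mb. The 11 fold changes refitted for named loci kept their sign in every fit that gave a value. Every line lay beyond both M82 libraries at each of these loci, mostly by the rule that named them. A change of sign was therefore unlikely, and nothing is read from this. Cluster_249, Cluster_3017, Cluster_3536 and Cluster_3718 had no value in some of the fits that left out a line. No paired analysis was possible because the labels match no M82 plant to a plant of a line. Depth limits loci under about 10 reads.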

Other observations

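A single unplaced locus above the length limit held reads on the scale of all those inside the limits together. Cluster_289, 1900 bp long (4196932 to 4198831), had 70948 and 29863 reads in the M82 plants, 65545 for IL1-1, 121638 for IL2-5 and 74194 for IL8-3. The 3283 loci of 41 to under 1000 bp had 72965 and 45203 in the M82 plants and 67154, 105963 and 77143 across the lines. IL2-5 was the highest library on the scaled level in both cases. The log2 fold change of Cluster_289 was 0.55 (SE 0.58, edgeR quasi-likelihood adjusted p = 0.796).

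Cluster_2598, 1361 bp long (16693531 to 16694891), had 947 reads in IL1-1 and 0 in each other library. The 617 unplaced loci of 40 bp or less had 3084 and 2033 reads in the M82 plants and 2411, 3465 and 4302 across the lines.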
